A study of Bos indicus with 6 samples.

Results

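Lipid uptake and synthesis genes were examined in the endometrium, the lining of the uterus, of Nelore cows on day 7 after an induced ovulation. The set was chosen by gene identifier and has 5 members of 24616 genes in the deposited table. They are LPL (ENSBTAG00000012855), ACACA (ENSBTAG00000017567), FASN (ENSBTAG00000015980), SCD (ENSBTAG00000045728) and DGAT1 (ENSBTAG00000026356). The symbols came with the choice of the set. All 5 symbols are protein-coding genes in the RefSeq table of Bos indicus used here, but that table holds none of the Ensembl identifiers, so the pairing of identifier and symbol could not be checked. Of the 5 members, 3 had reads and passed the filter on low values (ACACA, FASN and SCD), and 2 were listed at 0 in every library (LPL and DGAT1).

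The study sequenced RNA from 6 cows, 3 in each of 2 hormonal regimens, and its title names the effect of preovulatory follicle size on the endometrium as the question. All cows of the trial were multiparous, not lactating, presynchronized Bos indicus beef cows, and all received estradiol benzoate and a device releasing progesterone on day -10. Cows of the large follicle and large corpus luteum regimen (LF-LCL) were also given the prostaglandin analogue cloprostenol on day -10, and cows of the small follicle and small corpus luteum regimen (SF-SCL) were not. In both regimens the device was removed and cloprostenol given before GnRH on day 0, by 42 to 54 hours in LF-LCL and by 30 to 36 hours in SF-SCL. The regimens therefore differ in drug exposure and in timing as well as in follicle and corpus luteum size, and these cannot be told apart. Of the 74 cows in the trial, 35 were assigned to LF-LCL and 39 to SF-SCL. The sources used here give neither ages nor how the 6 cows were picked.

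Fatty acids reach a cell from the blood or are made inside it. Lipoprotein lipase (LPL) sits on the capillary wall and releases fatty acids from circulating triglyceride for uptake by the tissue. Inside the cell, acetyl-CoA carboxylase alpha (ACACA) makes malonyl-CoA, the committed step of synthesis, and fatty acid synthase (FASN) uses it to build saturated fatty acids, mainly palmitate. Stearoyl-CoA desaturase (SCD) then introduces a double bond to give monounsaturated fatty acids such as oleate, and diacylglycerol acyltransferase 1 (DGAT1) joins a fatty acid to diacylglycerol to form triglyceride, the stored form. In ruminants the endometrial epithelium holds lipid droplets that change over the estrous cycle, and lipids of the uterine lumen nourish the embryo before it attaches.

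The libraries held 2896663 to 7811332 reads assigned to genes. Values are normalised read counts, which are reads scaled by the size factor of the library, and a single read is worth between 0.562 and 1.55 of them depending on depth. They are not divided by gene length, so levels are compared between cows and not between genes. The tissue label could not be checked against marker genes, because the identifiers carry no names, and in RNA from whole tissue a smaller number of cells of a type cannot be told apart from less RNA per cell. The number of genes called over the whole table changed whichever library was left out, and such a fit also has fewer cows. The limma fit called 121 genes in the whole table. Dropping an LF-LCL cow gave 1, 0 or 12 calls (replicates 1, 2 and 3 in turn). Dropping an SF-SCL cow gave 2, 0 or 370 calls, in the same order. The number rose only without SF-SCL replicate 3, the library with the fewest reads (2896663). In the fits with 0 calls, 1865 and 1580 genes had an unadjusted limma p under 0.05. The difference of each gene is therefore also given with libraries left out.

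None of the 3 measured genes of fatty acid synthesis and desaturation differed between the regimens beyond the spread between cows. SCD was 1.17 times as high in LF-LCL as in SF-SCL, FASN 1.07 times and ACACA 0.940 times. Of these 3 genes, 0 were called, where a call is an adjusted p under 0.05 in limma fitted over all 12535 genes tested with Benjamini-Hochberg adjustment. Of all tested genes, 0.965% were called. At an unadjusted limma p under 0.05, 0 of the 3 members and 17.1% of all tested genes passed. edgeR, which called 0.835% of the genes it tested, and DESeq2, which called 6.35%, also called 0 of the 3. The groups overlapped for all 3 members, and they did not overlap for 22.8% of tested genes. With only 3 members, a count of 0 cannot be told apart from these shares of all tested genes. The median log2 difference of the 3 members was 0.10, against -0.01 over all tested genes, and the 3 members did not share a direction.

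ACACA, the enzyme of the committed step, varied most between cows and had no common direction. Its normalised read count was 168, 116 and 128 in LF-LCL replicates 1 to 3 and 91.1, 157 and 209 in SF-SCL replicates 1 to 3. The SF-SCL cows held both the lowest and the highest value of the 6, and all LF-LCL cows lay between them. The LF-LCL mean was 137 ± 27.1 (SD, n = 3), and the SF-SCL mean was 152 ± 59.0 (SD, n = 3). The log2 difference, LF-LCL minus SF-SCL, was -0.09 with a standard error of 0.30 and a 95% interval of -0.78 to 0.60 (limma, adjusted p = 0.916). An exact two-sided permutation test over the cows gave p = 1, where the smallest value 3 cows against 3 can give is 0.1. In folds the interval runs from 0.584 to 1.51, so the data bound a difference in either direction only loosely. The sign rested on single cows. Without SF-SCL replicate 3 the log2 difference was 0.18 (limma, adjusted p = 0.780) and the SF-SCL mean was 124 over the remaining 2 cows. Without SF-SCL replicate 1 it was -0.42 (limma, adjusted p = 0.556), and without LF-LCL replicate 2 it was 0.02 (limma, adjusted p = 0.987).

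FASN, which assembles palmitate from the malonyl-CoA that ACACA supplies, was the most even of the 3 genes. It was at 95.0, 98.3 and 101 in LF-LCL replicates 1 to 3 and at 88.5, 80.7 and 108 in SF-SCL replicates 1 to 3. The LF-LCL cows lay close together, and the SF-SCL cows lay on both sides of them, with SF-SCL replicate 3 the highest of all 6. The means were 98.2 ± 3.15 (SD, n = 3) and 92.5 ± 14.2 (SD, n = 3). The log2 difference was 0.10 with a standard error of 0.18 and a 95% interval of -0.33 to 0.52, a fold of 0.797 to 1.43 (limma, adjusted p = 0.840). The exact permutation test, two-sided, gave p = 0.5. Without SF-SCL replicate 3 the SF-SCL mean was 84.6, and the log2 difference was 0.21 (limma, adjusted p = 0.609). Without SF-SCL replicate 2 it was 0.00465 (limma, adjusted p = 0.995).

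SCD, the desaturase, had the largest difference of the 3 genes in the reported fit, and it too was within the spread between cows. ACACA had the larger difference in size with edgeR and upper quartile factors (-0.21 against 0.13 for SCD) and without SF-SCL replicate 1 (-0.42 against 0.10). SCD was at a normalised read count of 269, 293 and 360.2 in LF-LCL replicates 1 to 3 and 219, 308 and 263 in SF-SCL replicates 1 to 3. LF-LCL replicate 3 was the highest and SF-SCL replicate 1 the lowest, while SF-SCL replicate 2 exceeded LF-LCL replicates 1 and 2. LF-LCL cows averaged 308 ± 47.1 (SD, n = 3), and SF-SCL cows averaged 263 ± 44.9 (SD, n = 3). The log2 difference was 0.23 with a standard error of 0.17 and a 95% interval of -0.17 to 0.62, a fold of 0.891 to 1.54 (limma, adjusted p = 0.560). The exact permutation test, two-sided, gave p = 0.4. Leaving out SF-SCL replicate 3, which was close to the SF-SCL mean for this gene, left the log2 difference at 0.23 (limma, adjusted p = 0.588). It was 0.35 without SF-SCL replicate 2 (limma, adjusted p = 0.483), 0.11 without LF-LCL replicate 3 (limma, adjusted p = 0.834) and 0.10 without SF-SCL replicate 1 (limma, adjusted p = 0.872).

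**Figure D1:**
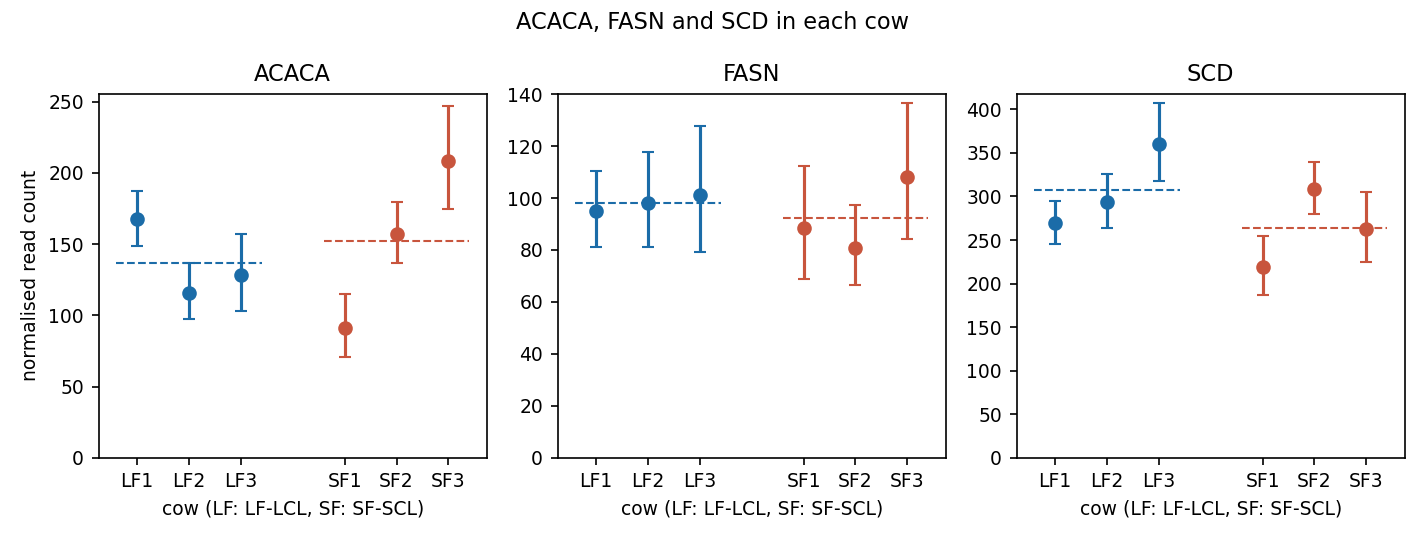
Normalised read counts (y axis, from 0) of ACACA, FASN and SCD in each of the 6 cows (x axis). Points are single libraries, bars are exact 95% Poisson intervals of the reads and cover counting error only, and dashed lines are the means of 3 cows. The groups overlap in all 3 panels, and ACACA runs from 91.1 to 209 within SF-SCL alone.

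On the RPM scale, which takes each gene relative to all reads assigned in its library and does not use the size factors, the 3 genes gave a similar picture. ACACA averaged 30.1 ± 7.35 RPM (SD, n = 3) in LF-LCL, against 34.5 ± 13.0 RPM (SD, n = 3) in SF-SCL. FASN was at 21.4 ± 1.11 (SD, n = 3) and 21.0 ± 2.90 (SD, n = 3), and SCD at 67.0 ± 10.8 (SD, n = 3) and 59.8 ± 10.4 (SD, n = 3). Each difference between these means was smaller than the SD of either group.

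**Figure D2:**
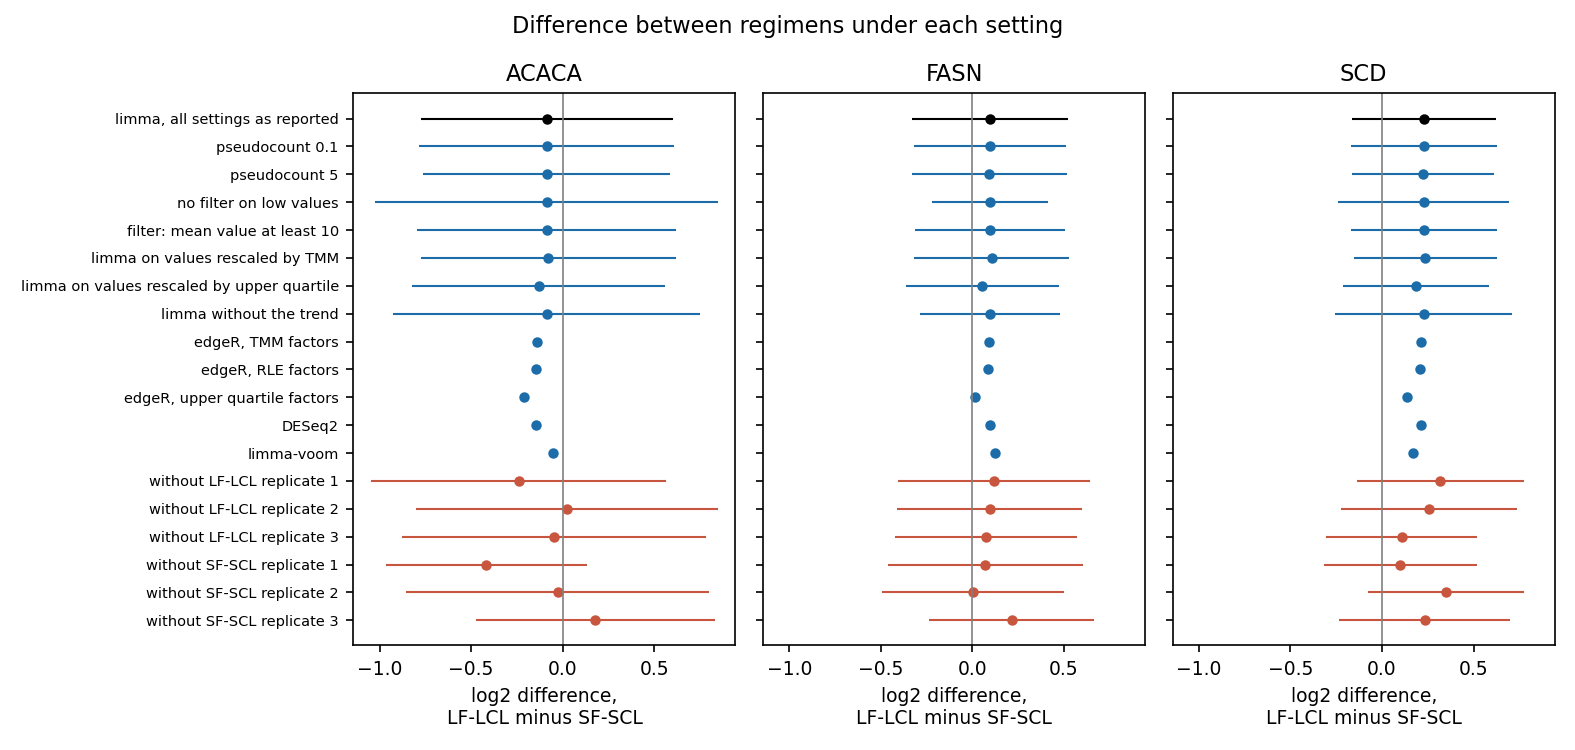
Log2 difference, LF-LCL minus SF-SCL (x axis), of each gene under the reported limma fit (black), 12 alternatives with all 6 libraries (blue) and 6 fits without 1 library (red). Lines are 95% limma intervals, drawn where the fit gives one. FASN and SCD stay above 0 in all 18 alternatives, ACACA changes sign in 2, and every interval drawn includes 0.

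Among cows of the same regimen the SD of log2 values was 0.47 for ACACA, 0.23 for SCD and 0.15 for FASN. Counting error sets a lower limit to the expected spread, which separate animals are likely to exceed, although an SD over 3 cows can fall below it. The excess is easier to see for genes with more reads. For ACACA the SD between cows was 4.33 times the SD expected from counting reads alone in SF-SCL and 2.43 times in LF-LCL. ACACA in SF-SCL rested on 70, 216 and 135 reads in replicates 1 to 3. The exact 95% Poisson interval of SF-SCL replicate 1, 71.0 to 115, did not reach that of replicate 2, 137 to 180, or of replicate 3, 175 to 247. Replicates 1 and 2 alone, without replicate 3, differed by 0.78 on the log2 scale. The largest fold between any 2 SF-SCL cows was 2.28, against 1.83 between any 2 cows of different regimens. For ACACA, then, the widest gap lay within a regimen.

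For SCD, with 1849 reads in all against 949 for ACACA and 608 for FASN, the SD between cows was 2.72 times the counting SD in LF-LCL and 2.57 times in SF-SCL. The FASN values spread no more than counting would give in LF-LCL (0.327 times) and little more in SF-SCL (1.33 times). FASN rested on 68 to 169 reads per library, so a small difference between cows was not detectable at this depth. The largest fold between 2 cows was 1.34 for FASN and 1.41 for SCD, both within SF-SCL, when only pairs of the same regimen are considered. Between cows of different regimens the largest fold was 1.25 for FASN and 1.65 for SCD. For SCD, unlike ACACA and FASN, the widest gap therefore lay between cows of different regimens.

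Against genes of like abundance, ACACA was among the more variable ones. Of 5640 tested genes with a mean normalised read count of 50 to 500, 87.1% had a within-group SD of log2 values no larger than that of ACACA, which was 0.47. The median of these genes was 0.22. SCD lay near the middle (SD 0.23, 53.0% of genes no larger), and FASN was in the lower part (SD 0.15, 27.9% no larger). These ranks describe the 6 libraries and carry no test.

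**Figure D3:**
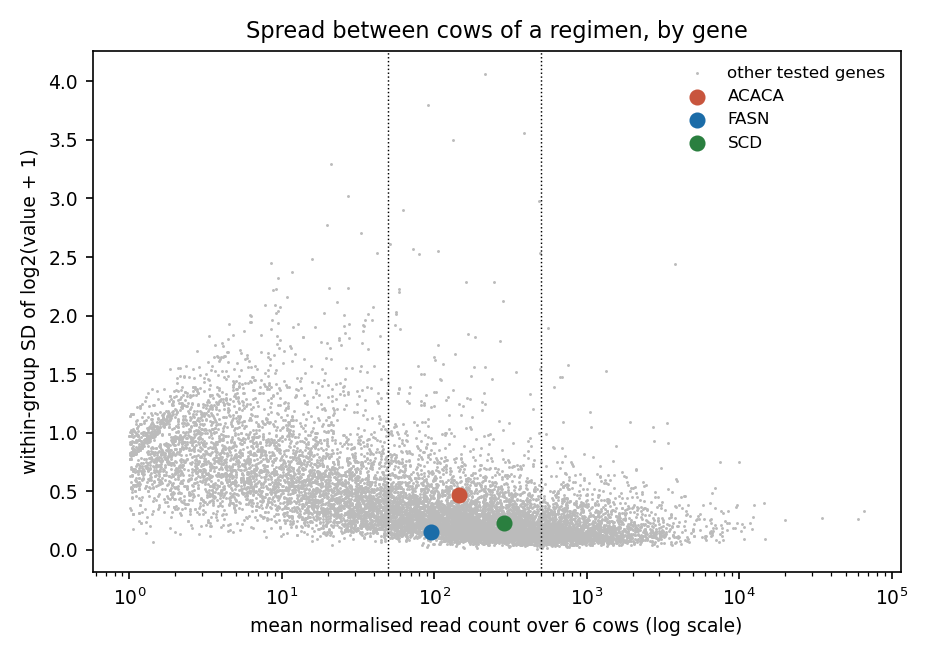
Within-group SD of log2(value + 1) (y axis) against mean normalised read count over the 6 cows (x axis, log scale) for the 12535 tested genes (grey) and the 3 measured members (coloured). Dotted lines mark means of 50 and 500. ACACA lies in the upper part of the cloud between the dotted lines, and FASN in the lower part. The SD of ACACA is 0.47, against a median of 0.22 over all genes between these lines.

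The 3 genes did not keep a fixed proportion to each other across cows. A log2 ratio of 2 genes within a library depends on that library's scaling only through the pseudocount of 1, and only its change between cows can be read, since gene lengths differ. The ratio of ACACA to FASN, successive enzymes of the same route, was 0.81, 0.23 and 0.33 in LF-LCL replicates 1 to 3 and 0.04, 0.95 and 0.94 in SF-SCL replicates 1 to 3. SF-SCL replicate 1 had the lowest ratio and the other SF-SCL cows the highest, so the groups overlapped, with or without replicate 3. The means were 0.46 ± 0.31 (SD, n = 3) and 0.64 ± 0.52 (SD, n = 3).

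The ratio of SCD to FASN, the desaturase relative to the synthase, was 1.49, 1.57 and 1.82 in LF-LCL and 1.30, 1.92 and 1.27 in SF-SCL, with means of 1.63 ± 0.17 (SD, n = 3) and 1.50 ± 0.37 (SD, n = 3). The ratio of SCD to ACACA was 0.68, 1.33 and 1.48 in LF-LCL and 1.25, 0.97 and 0.33 in SF-SCL, with means of 1.17 ± 0.43 (SD, n = 3) and 0.85 ± 0.47 (SD, n = 3). The groups overlapped for both ratios, and SF-SCL replicate 3 had the lowest value of each.

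Likeness of the log2 levels across the 6 libraries differed by pair and measure. Pearson's r was 0.34 for ACACA and FASN (Spearman's rho 0.37), 0.22 for ACACA and SCD (rho 0.03) and 0.13 for FASN and SCD (rho 0.03). For deviations from the group means, r was 0.41, 0.33 and -0.06 in the same order. Without the 2 libraries farthest from the median of the first gene of the pair, r became -0.58, -0.45 and 0.98 over the remaining 4 libraries, so the values depend on which libraries enter, and 4 points show no more than that. They are given as a description, and the points share library and depth.

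LPL, the uptake enzyme, and DGAT1, the triglyceride-forming enzyme, were listed at 0 in all 6 cows. For each of them the libraries held 0 of 29128120 assigned reads, and a count of 0 allows up to 3 reads. Over the 6 libraries together this limit is 0.103 RPM. Per library it lies between 0.384 and 1.04 RPM, or between 1.69 and 4.64 on the normalised scale. The limit covers counting error only. Both genes failed the filter, which asked for a mean normalised read count of at least 1, and no comparison between the regimens is given for them.

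A row at 0 does not show that the gene is silent. DGAT1 is known as a broadly expressed enzyme, and the table holds 9148 rows at 0 in every library, 37.2% of all rows. Rows with a single read over the 6 libraries numbered 1231, and those with 2 reads 614. The rows carry Ensembl identifiers, but the sources used here do not give the build, the annotation release or the handling of ambiguous reads. No transcript of these genes therefore cannot be told apart from a row to which the counting assigned no read, or from an identifier that stands for another gene. The uptake and storage steps are for that reason not described by these data, and the values given above cover synthesis and desaturation only.

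**Figure D4:**
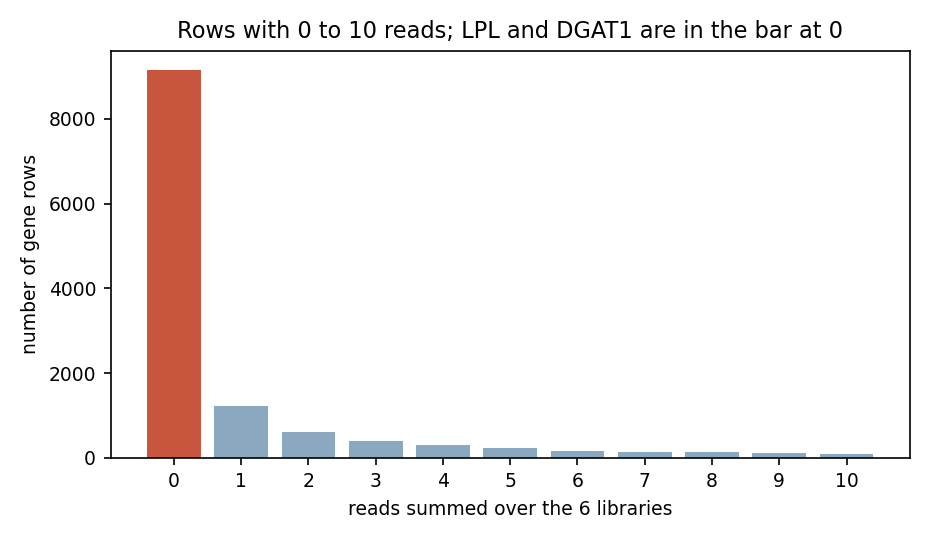
Number of gene rows (y axis, from 0) by reads summed over the 6 libraries (x axis, 0 to 10). LPL and DGAT1 are among the 9148 rows at 0 (red), which outnumber the 1231 rows with 1 read.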

How the data were processed

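Endometrial RNA of 6 cows was sequenced on the Illumina HiScanSQ platform. Per the submitters' processing notes, which state no role or order, the tools were HTSeq 0.5.4p2, DESeq 1.12.1, Bowtie2 2.1.0, CASAVA 1.8.2 and SAMtools 0.1.18. Each deposited value is a signal, which the values themselves show to be a read count over a library's size factor: 100% were whole multiples of the smallest value within 0.01 reads. Whole reads were recovered from them.

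Genes with a mean of at least 1 were tested with limma 3.58.1 (R 4.3.3) on log2(value + 1), a scale that understates changes of low genes, with a mean-variance trend and group as the only term. All 12535 tested genes were adjusted together. Alternatives were other pseudocounts, filters and scalings, edgeR 4.0.16 (quasi-likelihood), DESeq2 1.42.0 and limma-voom on recovered reads, and leaving out each library. Scripts were tested on simulated data. On the recovered reads edgeR called 85 genes.

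The labels describe separate cows. Every pair of libraries differed by 8.69 times the counting variance or more, so none was counted as a repeat. The sources used here name no batch. Replicate numbers follow accession order. The members and lists were chosen with earlier results of these data known. All 5 members were to be named whatever their values. Lists of other lipid genes, cell type markers and promoter motifs were not analysed, because 0 of 24616 identifiers matched the gene table (RefSeq, assembly NIAB-ARS_B.indTharparkar_mat_pri_1.0) and no sequences were used here.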

Additional observations from a re-analysis of the deposited data

How the results depend on the processing

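Under all 18 alternatives, 0 of the 3 measured genes were called. With all 6 libraries the log2 difference ranged from -0.21 to -0.05 for ACACA, 0.01 to 0.12 for FASN and 0.13 to 0.24 for SCD. With 1 library left out the ranges were -0.42 to 0.18, 0.00465 to 0.21 and 0.10 to 0.35. ACACA reversed to 0.02 without LF-LCL replicate 2 and to 0.18 without SF-SCL replicate 3. The 121 genes called over the whole table became 4 without a filter, 0 without the limma trend (1863 at an unadjusted limma p under 0.05, with 85 called by edgeR), 55 with edgeR and upper quartile factors and 686 with DESeq2; the cause was not tested. Fits on 5 libraries called between 0 and 370 genes, the most without SF-SCL replicate 3 (in those with 0 calls, 1580 and 1865 genes had an unadjusted limma p under 0.05). The ratios of genes within a library moved by less than their SD with pseudocounts of 0.1 and 5. LPL and DGAT1 had no reads, so no difference is given for them under any alternative. No paired analysis was possible because the numbers in the labels are animal numbers that no cows share. FASN had the fewest reads of the 3 measured genes, with 608 over the 6 libraries.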
